A study of Mus musculus with 7 samples.

Results

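VH81X is the usual name of Ighv5-2, an immunoglobulin heavy chain variable (VH) segment near the D-proximal end of the mouse Igh locus. Its joins were read by high-throughput genome-wide translocation sequencing (HTGTS), which sequences the DNA joined to a fixed bait, here the coding end of JH4. A VH81X join was any junction on chromosome 12 in the orientation of a deletional V(D)J join (Strand 1) with its prey end in a window of 237 bp that held junctions from 114836368 to 114836404. Positions are those of the deposited files, aligned to mm9 per the submitters' processing notes. This rule found 4119 of the 95203 V joins (Strand 1 junctions in the 3.01 Mb from VH5-1 upward) among 264791 junction lines in all, and 1 of 158 V clusters. The name was checked by spacing: the neighbouring clusters lay within 3, 2 and 40 bp of the distances that the RefSeq gene table (GRCm38.p6) gives between Ighv5-2 and Ighv5-1, Ighv2-2 and Ighv5-4.

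All 7 libraries were made from DNA of pro-B cells from the bone marrow of mice 4 to 6 weeks old, with B220+CD43highIgM- as the sorted phenotype. There were 3 WT libraries and 4 libraries of the genotype VH81X-CBEscr/scr, called mutant here, and both genotypes have the 129SVE background. CBE stands for CTCF-binding element in the title of the series, and the labels do not spell out the rest of the genotype name. The labels name no transgene and do not say whether each library is a separate mouse, so a p-value here reflects the spread among libraries, which may be technical. The cell type could not be checked by marker expression in genomic DNA. The libraries held 31986 to 46915 lines and 10961 to 16874 V joins each. Each line is 1 read, and PCR copies of 1 molecule can give several, so the 95% Wilson intervals given here cover counting error only. The reads came from 4 sequencing runs, of which 0 held both genotypes, so run and genotype cannot be told apart.

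In V(D)J recombination the RAG endonuclease cuts between a gene segment and its recombination signal sequence, a heptamer and a nonamer held apart by a spacer. The segment's side is the coding end, which is trimmed and extended before it joins a DJ segment, and a coding end joined to a signal end instead is a hybrid joint. CTCF is a zinc finger protein that binds DNA and holds chromatin loops in place, and many D-proximal VH segments have a CTCF-binding element just beyond their signal. VH81X is known for very frequent use in early B cell development, and many of its heavy chains pair poorly with the surrogate light chain.

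The sequences around the VH81X cut are shown first because the comparison turns on them. They are consensus bases of the deposited reads, written 5′ to 3′ in the coding sense (minus strand of chromosome 12). The coding end, chr12:114836377-114836476, is shown with the codon of the conserved second cysteine in capitals, the fixed point from which reading frames were counted.

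WT VH81X coding end: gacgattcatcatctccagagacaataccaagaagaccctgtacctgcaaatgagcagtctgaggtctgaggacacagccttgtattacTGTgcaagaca

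The signal side follows directly, chr12:114836267-114836376. The capitals mark the 18 bases within which the genotypes differed, at chr12:114836305-114836322.

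WT VH81X signal side: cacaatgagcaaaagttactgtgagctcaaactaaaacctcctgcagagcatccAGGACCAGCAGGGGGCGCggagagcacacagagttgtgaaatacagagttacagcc

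VH81X-CBEscr/scr signal side: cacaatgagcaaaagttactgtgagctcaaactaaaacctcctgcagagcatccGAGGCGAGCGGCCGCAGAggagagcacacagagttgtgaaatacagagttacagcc

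The WT heptamer CACAATG differed from the consensus CACAGTG at 1 base, and the nonamer ACTAAAACC from ACAAAAACC at 1 base, with a spacer of 23 bases between them. Over the 110 bases compared, the genotypes differed at 10, all inside the 18-base element AGGACCAGCAGGGGGCGC. The mutant reads carried GAGGCGAGCGGCCGCAGA in its place, with the same base composition (4 A, 5 C, 9 G and 0 T in each). The element begins 55 bases from the coding end, 15 bases past the nonamer, and heptamer, spacer and nonamer were the same in both genotypes, as read from 1 mutant junction. A core of the CTCF motif, searched on both strands as CCANNAGNNGGC (N for any base), occurred 1 time in the WT stretch and 0 times in the mutant one. The first 110 bases of 0.639% of 32851 RefSeq promoter sequences of the mouse table held the same letters.

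The altered element was read directly only on the signal side, through rare joins on the opposite strand (Strand -1) of the VH81X window. These reads run from the JH4 end into the signal of VH81X and on through the element. WT replicates 1 to 3 held 14, 4 and 6 such lines, from 8, 1 and 5 distinct junctions. Mutant replicates 1 to 4 held 0, 0, 2 and 0, and both lines of mutant replicate 3 came from 1 junction. Of the WT lines, 19 (from 11 distinct junctions) reached across the whole element, and all 19 carried the intact sequence. Both mutant lines reached across it and carried the altered one, with 0 bases differing between them over the stretch shown. No other line in any library crossed the element, so the genotype of mutant replicates 1, 2 and 4 was not read at this site. A coding join of VH81X has lost the signal side, so none of the mutant VH81X joins described here shows which form of the element the chromosome had carried.

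**Figure D1:**
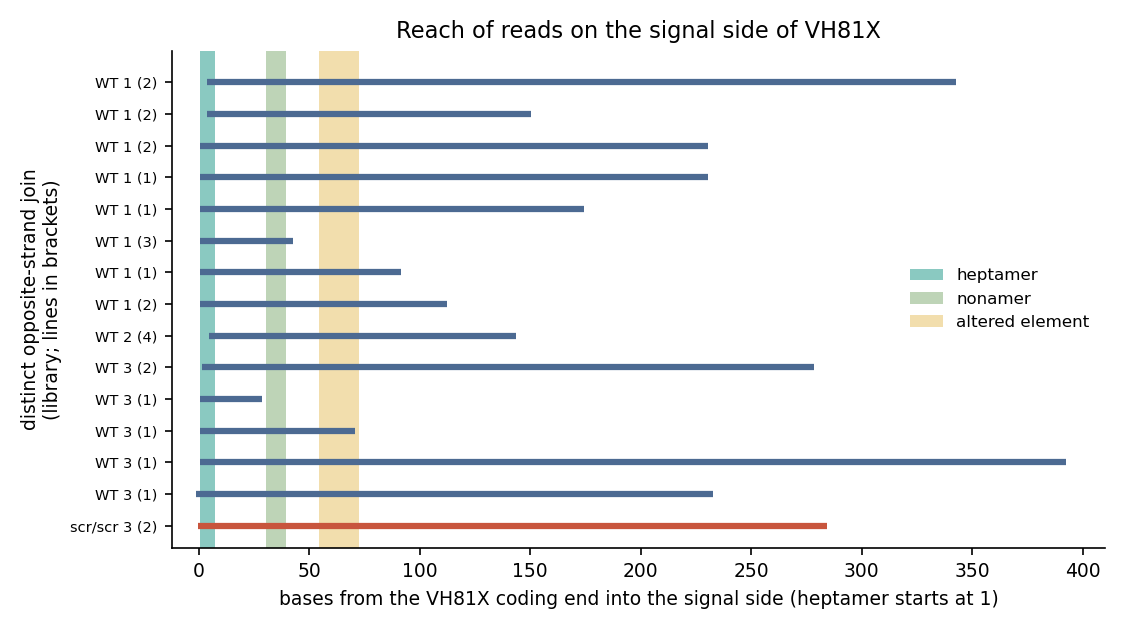
Stretch covered by the reads of each distinct opposite-strand join at VH81X, in bases from the coding end into the signal side, with the number of lines in brackets. The heptamer, nonamer and altered element are shaded; 11 of 14 WT joins and the 1 mutant join ran across the element, whose last base lies 72 bases from the coding end.

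Of the 14 distinct WT joins on the opposite strand, 9 began exactly at the first base of the heptamer, as a join to an untrimmed signal end does. Another 4 began inside the signal and 1 outside it. In 10 of the 14, the bases between JH4 and the signal held a run of at least 6 bases of a D segment. Examples from WT replicate 1 show a signal end joined to a DJ segment, written from JH4 outwards with the bases between JH4 and the heptamer in capitals.

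WT join holding 16 bases of D_114705399: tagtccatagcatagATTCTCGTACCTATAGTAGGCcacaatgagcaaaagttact

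WT join holding 15 bases of D_114727777: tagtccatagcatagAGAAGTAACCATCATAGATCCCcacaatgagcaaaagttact

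The share of opposite-strand lines in the VH81X window was 0.918%, 0.396% and 0.396% in WT replicates 1 to 3, and 0%, 0%, 12.5% and 0% in mutant replicates 1 to 4. Counts of 0 among 46, 8 and 26 lines of mutant replicates 1, 2 and 4 allow shares of up to 6.52%, 37.5% and 11.5% (3 counts). The genotypes overlapped (difference 2.55 percentage points, two-sided exact permutation p = 1), and without mutant replicate 3 the difference was -0.57. Other V segments together had 0.299% to 0.738% opposite-strand lines per library.

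VH81X was the most joined V segment of every WT library and was rare in every mutant library. It took 1511 of 16874 V joins in WT replicate 1, 1006 of 10961 in replicate 2 and 1508 of 14891 in replicate 3, or 8.95%, 9.18% and 10.1%. In mutant replicates 1 to 4 it took 46 of 12047, 8 of 11670, 14 of 13040 and 26 of 15720, or 0.382%, 0.0686%, 0.107% and 0.165%. All mutant values lay below all WT values, and the genotypes did not overlap. Of 129 V clusters with at least 10 lines on average in either genotype, 1.55% (2 clusters, VH81X among them) were lower in every mutant library than in any WT library, and 6.2% (8 clusters) were higher in every one. Among the 158 V clusters, VH81X ranked first in all 3 WT libraries and ranked 71, 120, 111 and 100 in mutant replicates 1 to 4.

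The mean share was 9.42% ± 0.622 (SD, n = 3) in WT and 0.181% ± 0.140 (SD, n = 4) in the mutant, and the mean share was 52.1-fold lower in the mutant. The difference between the means of the log2 shares, the measure used for all log2 differences here, was -6.00. The two-sided exact permutation p was 0.0286, the smallest possible with 3 and 4 libraries, and 0.171 after Benjamini-Hochberg adjustment over the 6 comparisons of genotypes made here. The fall was smaller among lines not marked duplicate (-4.51) and similar among distinct junctions (-5.65). The Wilson interval was 0.286% to 0.509% in mutant replicate 1, the highest of its genotype, and 0.0347% to 0.135% in mutant replicate 2, the lowest. Repeated reads make both intervals too narrow, and the difference between these libraries was not tested.

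**Figure D2:**
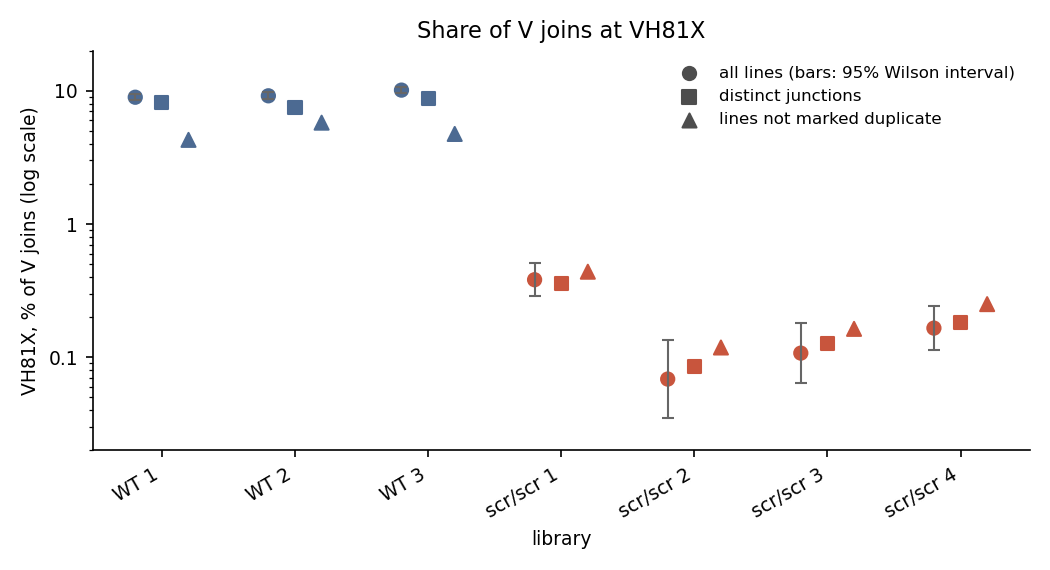
Share of V joins at VH81X in each library on a log scale, counted over all lines (circles, with 95% Wilson intervals), distinct junctions (squares) and lines not marked duplicate (triangles). The WT libraries lie between 4.28% and 10.1% by any count, and the mutant libraries between 0.0686% and 0.438%.

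Many VH81X lines were repeated reads of the same junction. VH81X lines fell into 958, 278 and 848 distinct junctions in WT replicates 1 to 3 (a distinct junction being 1 combination of prey end, bait end and bases between, so copies with a read error count apart), and into 21, 5, 10 and 15 in mutant replicates 1 to 4. Lines per distinct junction were 1.58, 3.62 and 1.78 in WT and 2.19, 1.60, 1.40 and 1.73 in the mutant, and the genotypes overlapped (difference -0.59, exact permutation p = 0.429). The deposited duplicate mark fell on 79.4%, 84.1% and 79.6% of WT VH81X lines, and on 54.6%, 73.7% and 53.8% of other V lines of the same libraries. Each combination of prey and bait position held 8.94, 9.77 and 9.20 WT lines at VH81X, against 3.16, 4.32 and 3.08 at other V segments. In mutant VH81X joins it held 1.56 to 3.07, from only 8 to 46 lines per library. Among lines not marked duplicate, the share of VH81X in WT was 4.28%, 5.77% and 4.75%. How the mark was set is not given in the sources used here.

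No other of the 126 V clusters compared had a log2 difference below -1.11. They are the clusters with at least 1 line in every library and at least 10 per WT library on average, and their median log2 difference was -0.04. The 3 clusters next to VH81X in that order were V_117628461 (-1.11), V_115111723 (-0.88) and V_117393768 (-0.76), each named by its most frequent junction. V_117628461 took 0.0782% ± 0.0282 in WT and 0.0370% ± 0.0143 in the mutant, from 35 and 20 lines, so it is sparse. These clusters were picked for their differences, which are given without a test. In each of the 3 the genotypes overlapped, so none is the other cluster that was lower in every mutant library. VH5-1, a pseudogene in the gene table and the only V cluster downstream of VH81X, lies 5.57 kb away and had a log2 difference of -0.36. VH2-2, 9.77 kb upstream, and VH5-4, 19.0 kb upstream, had differences of 1.05 and 0.67.

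The coding end of VH81X was cut back by only a few bases in both genotypes. In WT, 37.1% of the 4025 lines joined at 114836377, where no VH81X base is lost, and 26.0%, 11.03% and 10.5% joined with 1, 2 and 3 bases lost. In the mutant, 41.5% of the 94 lines joined at 114836377, and 26.6% and 17.02% joined with 1 and 2 bases lost. A further 153 WT lines and 6 mutant lines were placed inside the signal, with no VH81X base lost either. Every one of the 94 mutant lines fell inside the range of WT junctions, 114836368 to 114836404. Mean distance was counted from the heptamer base next to the coding end, so that 1 means no base lost. It was 2.53, 2.90 and 2.63 in WT replicates 1 to 3. In mutant replicates 1 to 4 it was 1.57, 0.625, 2.57 and 3.08. These ranges overlapped, with a difference of -0.73 bases (two-sided exact permutation p = 0.371).

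**Figure D3:**
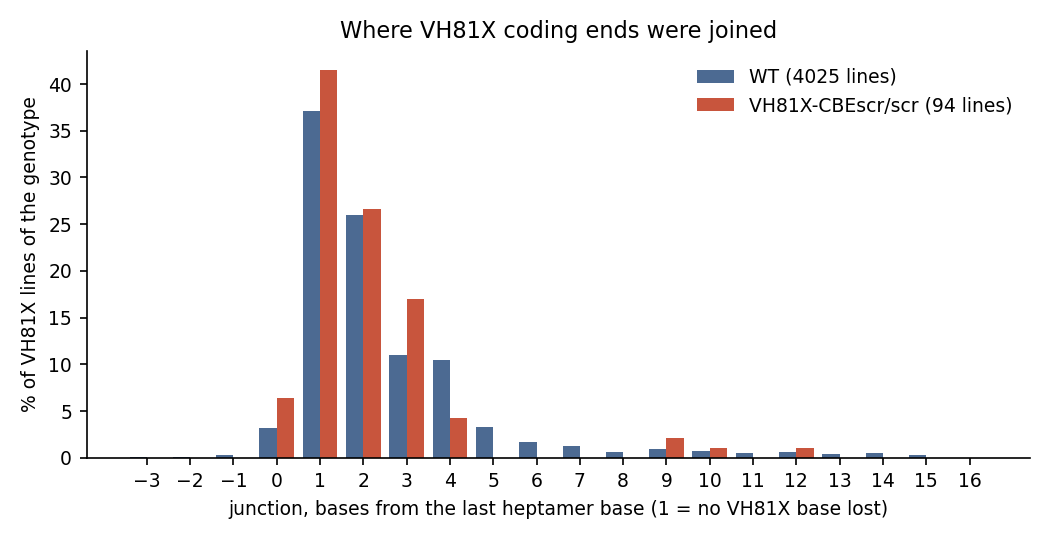
Share of VH81X lines of each genotype by junction position, counted from the heptamer base next to the coding end. A value of 1 is a coding end with no base lost. Bars peak at 1 in both genotypes (37.1% of WT and 41.5% of mutant lines). Values of 0 and below are junctions placed inside the signal.

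In WT, the base joined to the uncut end of VH81X was most often T. Palindromic (P) bases copy a coding end in reverse complement, and the first such base at an end in A, as here, is T. Among distinct WT junctions placed at 114836377, with no VH81X base lost, 446 of 766 (58.2%) had T next to the V end. Of those with 1 or more bases lost, 274 of 1218 (22.5%) had T there. A C next to the uncut end aligns as the first heptamer base and cannot be counted there. Among A, G and T alone the shares were 58.2% and 31.3%. At a trimmed end, an added base equal to the next VH81X base is hidden in the same way, which was not corrected. The shares thus do not rest on like sets of bases. In the mutant, T and G each stood next to 7 of 18 uncut ends, and next to 6 and 14 of 30 trimmed ends. These counts are a description of the pooled libraries, without a test.

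The stretch between VH81X and JH4, which holds the D segment and added bases, had a similar median length in both genotypes. Its median was 17, 17 and 18 bases in WT replicates 1 to 3, and 18, 14, 20.5 and 17 in mutant replicates 1 to 4, against 17 bases for other V joins in every library. The mutant medians lay on both sides of the WT ones (difference 0.042 bases, two-sided exact permutation p = 1). No line of the files had over 30 bases between the ends, so the long end of this distribution was not analysed here.

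VH81X joins in WT held the D segment D_114705399 more often, and DFL16.1 less often, than other V joins did. D coding sequences were taken from the consensus of DJ joins in the same files, for 12 D segments from DQ52, nearest to JH4, to DFL16.1, farthest from it. A join was given to a D segment where its inserted bases held a run of at least 6 bases of that segment and of no other at that length. The segments named here are shown in coding sense in full.

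DQ52: ctaactgggac

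D_114695747: cctagtatggtaactac

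D_114705399: cctactataggtacgac

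DFL16.1: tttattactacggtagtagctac

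A D run of at least 6 bases was found in 80.3%, 81.7% and 82.8% of WT VH81X joins, and in 80.2%, 78.6% and 80.4% of other V joins. Searching the same WT VH81X joins for the inverted D sequences found a run in 36.7%, 41.3% and 39.3%. D_114705399 holds 6 bases that read the same when inverted (ctatag). These shares can thus include true D bases, and they do not measure matches by chance. Of 2202 WT VH81X lines given to 1 D segment, 956 held D_114705399, the sixth of the 12 counted from JH4. Its share was 39.5%, 45.7% and 45.5% in WT replicates 1 to 3. In other V joins it was 20.7% ± 1.04 (SD, n = 3), below every VH81X value. In the DJ joins of the same libraries, counted by position, D_114705399 took 9.46% ± 0.771.

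DFL16.1 was less frequent. It took 15.8%, 8.66% and 10.3% of assigned VH81X joins in WT replicates 1 to 3, against 28.7% ± 1.53 of other V joins and 23.6% ± 0.126 of DJ joins. The neighbouring segments were low as well. DFL16.1 took 17.6% ± 6.30 of WT joins of VH2-2 (10.5% to 22.3%, a range that overlaps that of VH81X), 20.5% ± 2.36 of VH5-4 and 4.84% ± 5.91 of VH5-1, with 6 of 108 assigned lines at VH5-1. D_114695747 took 13.4% ± 0.811 at VH81X and 8.90% ± 1.39 at other V segments, and DQ52 took 5.33% ± 1.50 and 5.23% ± 0.319. D_114700407 and D_114710077 share 1 coding sequence and could not be told apart, and other D segments differ by few bases, so shares by sequence and shares by position are not on the same scale. The comparison of VH81X with other V joins uses the same assignment on both sides.

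**Figure D4:**
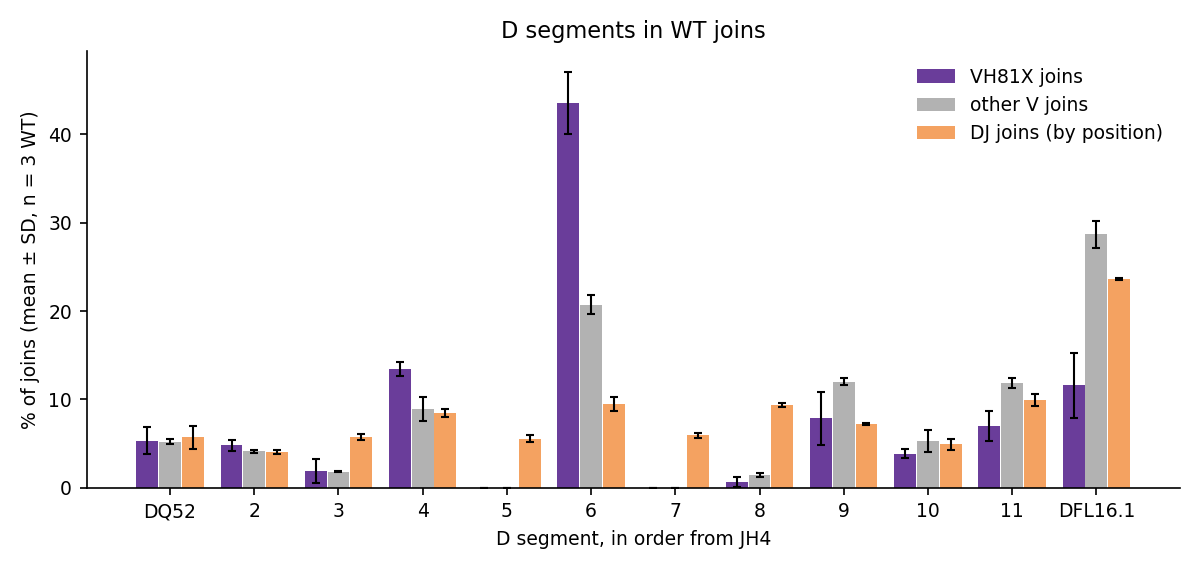
D segments in WT joins, in order from JH4, as mean and SD over 3 libraries. Bars give VH81X joins and other V joins assigned by sequence, and DJ joins by position. The sixth D segment, D_114705399, stands at 43.6% of VH81X joins, 20.7% of other V joins and 9.46% of DJ joins; the segments at places 5 and 7 share 1 sequence and are never assigned.

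D_114705399 was more frequent in VH81X joins of either frame, and was also frequent at the neighbouring segments. Among out-of-frame joins it took 45.5% ± 1.88 (SD, n = 3) of assigned WT VH81X joins and 24.3% ± 0.879 of other V joins, and among in-frame joins 38.9% ± 7.98 and 18.0% ± 2.53. With runs of at least 10 bases the shares were 42.4% ± 4.88 and 17.7% ± 1.79, and among distinct junctions 42.7% ± 3.28 and 20.1% ± 1.04. VH2-2 reached 38.2% ± 5.42 and VH5-4 32.5% ± 4.13, both above the 20.7% of other V joins as a whole. The values of VH81X and VH2-2 overlapped, with ranges of 39.5% to 45.7% and 34.6% to 44.4%. VH5-1, with 67 of only 108 assigned lines, had a mean above that of VH81X, 67.0% ± 20.9 (45.7% to 87.5%).

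The few VH81X joins of the mutant also often held D_114705399, with 22 of 28 assigned lines in replicate 1, 1 of 3 in replicate 2, 8 of 11 in replicate 3 and 1 of 7 in replicate 4. Over all 7 libraries, the share of D_114705399 was higher in VH81X joins than in other V joins of the same library in 6 of 7, by 25.5 percentage points on average, with mutant replicate 4 as the exception. The two-sided exact sign-flip permutation p was 0.0313 (0.0438 adjusted over 7 comparisons). DFL16.1 was lower in VH81X joins in 7 of 7 libraries, by a mean difference of -20.9 points (p = 0.0156, the smallest that 7 libraries allow, and 0.0365 adjusted, by the same exact test). These tests were added after the WT values were seen and include them, and the mutant values in them rest on 3 to 28 assigned lines each.

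Joins of VH81X were mostly out of frame. A join was in frame where it kept the reading frame between the V cysteine and the JH4 tryptophan codon. In WT replicates 1 to 3 this held for 455 of 1511, 351 of 1006 and 428 of 1508 VH81X lines, or 30.1%, 34.9% and 28.4%. Frame was counted from the reference places of these codons, also where trimming had removed bases of them. Joins placed more than 10 bases from the heptamer base have lost cysteine codon bases. They made up 3.24%, 3.98% and 2.65% of these WT lines. Other V joins of the same libraries were in frame in 59.6%, 54.5% and 56.4%. VH81X was lower in 3 of 3 WT libraries, by a mean difference of -25.7 points ± 5.32 (SD), with an exact sign-flip permutation p of 0.25, the smallest that 3 libraries allow. Over all 7 libraries it was lower in 7 of 7, with a mean difference of -25.9 points (two-sided exact sign-flip permutation p = 0.0156, adjusted 0.0365). The test over 7 libraries was added after the WT values were seen and includes them.

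In-frame VH81X joins carried stop codons more often than in-frame joins of other V segments as a whole. A stop codon lay between the same fixed codons in 32.8%, 35.04% and 34.8% of in-frame WT VH81X joins, against 11.9%, 14.1% and 12.7% of other in-frame V joins. Over all 7 libraries this share was higher at VH81X in 6 of 7, all but mutant replicate 2 (mean difference 25.7 points, two-sided exact sign-flip permutation p = 0.0313, adjusted 0.0438). This test too was added after the WT values were seen and includes them, and its mutant values rest on 3 to 9 in-frame lines each. At the neighbouring segments the share with a stop codon in WT replicates 1 to 3 was 15.8%, 18.5% and 28.3% for VH2-2, 22.3%, 22.6% and 21.6% for VH5-4, and 8.70%, 40% and 47.6% for VH5-1. VH2-2 and VH5-4 lay below VH81X and above other V joins in 3 of 3 WT libraries (exact sign-flip permutation p = 0.25 for each against VH81X). The values of VH5-1, from 49 in-frame lines in all, lay on both sides of those of VH81X (VH81X minus VH5-1, 2.12 points ± 19.5, SD, n = 3). Open joins, in frame and without a stop codon, made up 20.2%, 22.7% and 18.5% of WT VH81X joins and 52.4%, 46.8% and 49.2% of other V joins. VH81X held 14.6%, 12.7% and 15.7% of out-of-frame V joins in WT replicates 1 to 3, and 3.68%, 4.70% and 4.10% of open V joins.

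VH2-2 and VH5-4 joins were in frame more often than those of VH81X in 3 of 3 WT libraries (exact sign-flip permutation p = 0.25 for each, the smallest for 3 libraries), and less often than other V joins as a whole. In WT replicates 1 to 3, VH2-2 joins were in frame in 38.6%, 39.7% and 38.1% and VH5-4 joins in 42.7%, 35.9% and 37.4%. VH5-1, a pseudogene, had 33.8%, 35.7% and 20.8%, a range that overlaps that of VH81X. Of 86 V clusters with at least 100 lines with a frame call in WT, 4 had a lower in-frame share than VH81X, and the median cluster had 63.1%.

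No difference in the in-frame share of VH81X joins between WT and mutant was detectable at this depth. It was 19.6%, 37.5%, 42.9% and 15.4% in mutant replicates 1 to 4, from 9 of 46, 3 of 8, 6 of 14 and 4 of 26 lines, so single libraries lay on both sides of the WT range. The difference was -2.30 points (two-sided exact permutation p = 0.771). Pooled, 22 of 94 mutant lines (23.4%, Wilson interval 15.99% to 32.9%) and 1234 of 4025 WT lines (30.7%, 29.3% to 32.1%) were in frame. Open joins made up 10 of 94 mutant lines (10.6%, 5.88% to 18.5%) and 812 of 4025 WT lines (20.2%, 19.0% to 21.4%). The pooled intervals take no account of repeated reads or of the spread between libraries. Among distinct junctions, 8 of 51 in the mutant were open (15.7%, 8.17% to 28.01%), and 20.2% of 2084 in WT. Of these 8, 1 junction, read 1 time in mutant replicate 4, had lost the cysteine codon from which frame was counted.

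**Figure D5:**
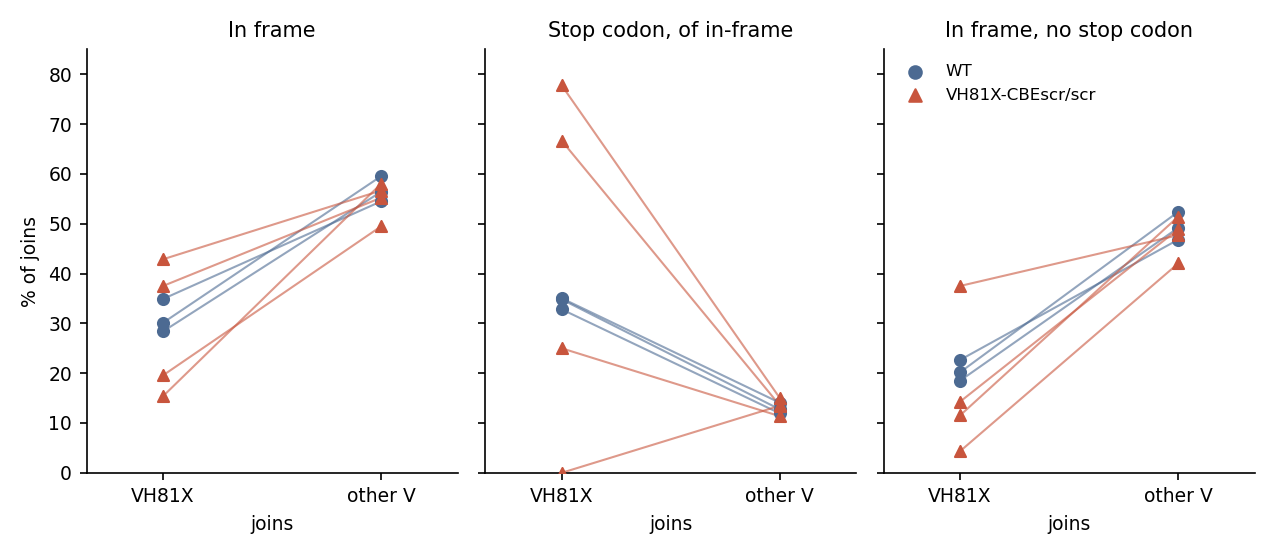
In-frame share, share of in-frame joins with a stop codon, and share of open joins in VH81X joins and in other V joins, with 1 line per library (WT circles, mutant triangles). VH81X lies below other V joins in the panels of in-frame and open joins in 7 of 7 libraries; the mutant VH81X points rest on 8 to 46 lines each in those panels, and on 3 to 9 in-frame lines each in the panel of stop codons.

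The VH81X joins that remained in the mutant carried the same VH81X bases as those of WT. Most held a run of at least 6 bases of a D segment, and the part of chance in such short runs was not measured. Over the 100 coding bases shown above, the mutant and WT consensus differed at 0 bases, and 99.7% of mutant and 99.8% of WT bases matched it, with at least 39 mutant lines behind each base. The 94 lines came from 51 distinct junctions, 30 of them read once, and 39 of the 51 held a D run. Copies with a read error count apart here too. Some junctions of mutant replicate 4 differed from each other at few bases, so these counts may be too high. Of the 51, 0 were found in more than 1 mutant library, and 0 were also found among the 2082 distinct WT junctions. WT libraries likewise shared few, with 2 distinct junctions found in more than 1 WT library.

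The 5 mutant junctions with most lines are shown from the cysteine codon of VH81X to the tryptophan codon of JH4, with the bases between the V and J ends in capitals. They are numbered by lines, and number 5 tied with number 6, which is not shown, at 4 lines. Number 1 was read 6 times, numbers 2 and 3 were read 5 times each, and numbers 4 and 5 were read 4 times each. Number 4 came from mutant replicate 4 and the others from mutant replicate 1.

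Mutant junction 1: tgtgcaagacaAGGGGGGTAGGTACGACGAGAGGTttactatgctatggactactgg

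Mutant junction 2: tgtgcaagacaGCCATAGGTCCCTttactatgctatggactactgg

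Mutant junction 3: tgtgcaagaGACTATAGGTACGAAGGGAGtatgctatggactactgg

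Mutant junction 4: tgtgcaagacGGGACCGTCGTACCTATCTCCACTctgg

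Mutant junction 5: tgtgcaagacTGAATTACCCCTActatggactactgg

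Numbers 1, 2 and 3 held runs of 10, 6 and 13 bases of D_114705399. The run of number 2 is the shortest that was counted. Its inserted bases held an equal run of D_114690286, D_114714725 and D_114723458 in the inverted direction. Number 4 held 11 bases of D_114705399 in the inverted direction, and number 5 held no D run of 6 bases. Of the 5, only number 1 was in frame, and it carried a stop codon. The most-read VH81X junction of each WT library is shown in the same way. That of WT replicate 1, read 9 times, was in frame, had no stop codon and held 16 bases shared by D_114700407 and D_114710077. Those of WT replicates 2 and 3, read 17 and 13 times, were out of frame. The junction of replicate 2 held a run of 6 bases shared by D_114695747 and DFL16.1. In the inverted direction it held a longer run, 7 bases shared by D_114690286 and D_114705399, so its D segment is uncertain. The junction of replicate 3 held no D run of 6 bases.

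WT replicate 1 junction: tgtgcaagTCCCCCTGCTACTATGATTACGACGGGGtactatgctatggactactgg

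WT replicate 2 junction: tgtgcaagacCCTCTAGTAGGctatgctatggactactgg

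WT replicate 3 junction: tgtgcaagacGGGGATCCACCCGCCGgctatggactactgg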

How the data were processed

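Genomic DNA of 7 pro-B libraries was read by HTGTS. The deposited files list 1 junction per line, with positions in the reference and in the read, the read sequence and a 0 or 1 duplicate mark; they hold no deposited counts, and lines were counted here. Per the submitters' processing notes, the authors aligned reads with Bowtie2 to mm9; other steps are not given in the sources used here. All lines were counted. V clusters were runs of junctions no more than 300 bp apart, with 10 lines or more. A frame call needed the cysteine motif in at least 50% of a cluster's lines, and 12 of 158 clusters had none. D segments were clusters with at least 1% of D lines. Python 3.11.15, pandas 2.3.3, SciPy 1.17.1 and matplotlib 3.10.9 were used. Frame calls, D assignment and permutation tests were tested on simulated data. For D assignment these were random D sequences, which are less alike than the real ones. Alternatives were duplicate-free lines, distinct junctions, each library left out, other windows, denominators and D run lengths, and a replicate block. The named segments were VH81X, its neighbours, the 3 V clusters with the lowest difference, DQ52, DFL16.1, D segments with at least 10% of assigned VH81X joins and the 5 most-read mutant junctions. The members and lists were chosen with earlier results of these data known.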

Additional observations from a re-analysis of the deposited data

Results flagged for a closer look

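The opposite-strand share in the VH81X window of mutant replicate 3, 12.5%, lay above the 0% of each other mutant library. It rests on 2 lines of 1 junction among 16 lines, below the 18.8% that 3 counts would give there. It was the only 1 of 8 quantities tested in the mutant libraries whose extreme value stood apart in this way. Chance flags about 1 group in 20, but that rate need not hold where the other values are tied at 0%. The cause was not tested.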

How the results depend on the processing

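The log2 difference in VH81X share kept its direction under all 14 alternatives, from -6.46 to -4.51. With each library left out in turn it ran from -6.46 to -5.64, with p at the smallest that 6 libraries allow (0.1 or 0.0667). With the replicate block it was -6.06 (exact sign-flip p = 0.25, the smallest for 3 pairs). Deviations of same-numbered libraries over 129 V clusters had correlations of -0.30, -0.017 and 0.13. These cannot show whether the numbers pair the libraries, which the labels do not say. With the block, the in-frame difference between genotypes was 2.18 points, and leaving out libraries took it from -6.98 to 2.18, positive without mutant replicate 1 (0.786) and mutant replicate 4. The difference in bases between VH81X and JH4 turned to -0.46 among distinct junctions and ran from -1 to 1.17 with libraries left out. The share of WT VH81X joins with a D run was 75.5% among lines not marked duplicate, 86.6% with runs of 5 bases, 68.7% with runs of 8 bases, and 81.0% to 82.3% with libraries left out. The opposite-strand difference ran from -0.57 (without mutant replicate 3) to 3.597. Lines per distinct junction differed by -0.968 to 0.0532 with libraries left out (positive without WT replicate 2). The difference was -7.15 (exact permutation p = 0.0286) where a junction was defined by its positions alone. That count can rise with depth, with 1006 to 1511 VH81X lines per WT library and 8 to 46 per mutant library. The part of depth in it was not tested. The in-frame difference of VH81X from other V joins (-28.7 to -19.8 points) and the difference in bases lost (-1.10 to -0.28) kept their direction in every alternative run. Depth limits the mutant values, since 8 to 46 VH81X lines per library stand behind them.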
